A study of Homo sapiens with 4 samples.

Results

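The Rab GTPases were examined as a family in ribosome footprints from 5-FU-resistant HCT-8 cells. Members were the genes whose symbol is RAB followed by a number and at most 1 letter from A to D. There were 63 such genes among the 20323 gene rows of the files, held in 65 rows. RAB5C and RAB13 had 2 rows each, and the row with the larger summed count was taken. HCT-8 is a human colorectal adenocarcinoma line, and the cells used resist 5-fluorouracil (5-FU), a drug that blocks thymidylate synthesis. Cells received a negative control plasmid (NC, 2 libraries) or a METTL14 overexpression plasmid (OE, 2 libraries), and all libraries were made after cycloheximide at 100 ug/mL. METTL14 pairs with METTL3, whose RNA binding it supports, in the enzyme that places N6-methyladenosine on messages. The study's design text says that the experiment was run 2 times, independently. Neither the promoter of the plasmid nor the origin of the resistant cells is stated in the labels.

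Rab proteins are small GTPases that give each membrane of the cell an identity. An exchange factor loads the Rab with GTP on its membrane, the GTP-bound form recruits effectors that move, tether and fuse vesicles, and an activating protein restores the GDP-bound form, which GDI extracts for reuse. A prenyl anchor, added by a geranylgeranyl transferase together with an escort protein, holds the Rab on the membrane. In intestinal epithelium Rabs sort proteins between the apical and basolateral surfaces and carry mucins and other cargo to release.

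The libraries held 7742274 to 24392875 estimated footprint counts, with the fewest in OE replicate 1. METTL14 had 44.5 and 47.6 CPM in NC, 448 CPM in OE replicate 1 and 91.2 in replicate 2, so both OE libraries lay above both NC libraries. CPM is the count relative to the total of the library after TMM scaling, which assumes that most genes do not differ between libraries. Of 13 markers of colorectal epithelium, 11 averaged at least 1 CPM; CEACAM5 and KRT20 did not. All 13 markers together summed to 22000 and 21400 CPM in NC, 6360 in OE replicate 1 and 24900 in replicate 2. Markers of fibroblasts (6), leukocytes (6) and endothelial cells (4) summed to 2.98 to 10.3, 3.62 to 13.4 and 0 to 0.41 CPM. CD3E, CDH5 and KDR were at 0 in every library, whereas COL1A1, PDGFRB, CD14 and LYZ averaged at least 1 CPM. In NC, COL1A1 had 4.48 and 4.86 CPM, PDGFRB 5.2 and 5.1, CD14 11.5 and 8.96, and LYZ 1.8 and 3.1. The part of these markers in the results below was not tested. A footprint count reflects both how much of a message is present and how many ribosomes it carries, and no total RNA was analysed here. CPM is not divided by gene length, so levels are compared between libraries and not between genes.

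Most of the Rab family carried footprints in these cells. Of the 63 genes, 47 passed the filter on low counts and were tested, among them members of every transport step. Another 7 had a few footprints and did not pass: RAB3B, RAB6D, RAB9B, RAB31, RAB34, RAB40A and RAB41. The remaining 9 had a count of 0 in all 4 libraries, which, at 3 counts a library, allows up to 0.154 and 0.176 CPM in NC against 0.285 and 0.136 in OE. These 9 were RAB3C, RAB6C, RAB25, RAB32, RAB38, RAB39A, RAB39B, RAB42 and RAB44. RAB25 is the epithelial relative of RAB11, and RAB32 and RAB38 serve lysosome-related organelles such as melanosomes. Together the 63 genes took 0.206% of all counts in NC replicate 1 (exact 95% binomial interval 0.204% to 0.208%) and 0.214% in NC replicate 2 (0.212% to 0.216%). The share was 0.234% in OE replicate 1 (0.231% to 0.238%) and 0.283% in OE replicate 2 (0.281% to 0.285%). These intervals cover counting error only. Both OE shares lay above both NC shares, whereas the summed TMM-scaled level was 2313 and 2345 CPM in NC, 1725 in OE replicate 1 and 3120 in replicate 2, so that the OE libraries then lay on either side of NC.

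**Figure D1:**
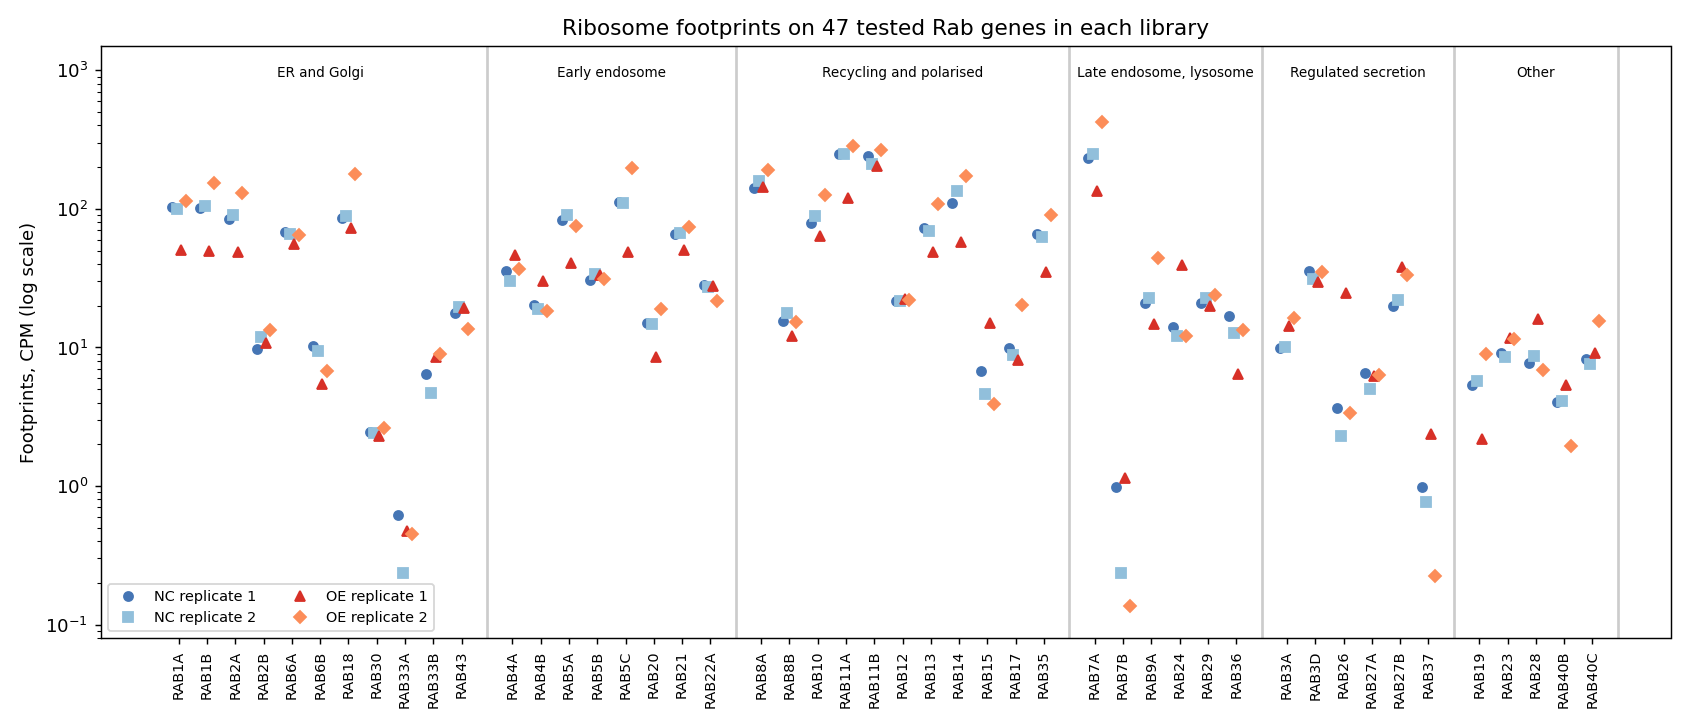
Footprints on the 47 tested Rab genes, grouped by transport step, in CPM on a log axis, with 1 point for each of the 2 NC and 2 OE libraries. The NC points lie close together for most genes, while OE replicate 1 and OE replicate 2 often lie on opposite sides of them, as for RAB5C, RAB7A and RAB14.

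No Rab gene passed the test of OE against NC. With p-values adjusted over all genes (edgeR, quasi-likelihood; Benjamini-Hochberg), 0 of the 47 were called at 0.05, as were 0 of 12560 genes (0% called), and the smallest adjusted p among the Rabs was 0.734. At an unadjusted p below 0.05 there was 1 Rab (RAB27B), against 691 of all genes (5.5%). The DESeq2 Wald test called 0 Rabs (smallest adjusted p = 0.414; 0.199% of all genes called), and so did edgeR's likelihood ratio test (smallest adjusted p = 0.587; 0.231% called). With the replicate number as a block 0 Rabs were called (0.191% of all genes), as with the numbers crossed (0.231%). The tested Rabs had a median log2 fold change of 0.06, beside 0.09 for all tested genes, and ran from -0.70 to 2.24. Both OE libraries lay below both NC libraries for 4 Rabs (8.51%, against 20.4% of all tested genes) and above them for 7 (14.9%, against 19.9%), and the groups overlapped for 36. Scaling by library totals alone, which moved the median of all genes from 0.09 to 0.40, gave 2 lower (11.8% of all genes) and 18 higher (30.2%). Loess offsets, which remove a dependence on level, gave 7 lower (20% of all genes) and 6 higher (19.7%). Under TMM, RLE, library totals and loess offsets, 3 Rabs lay higher in both OE libraries each time (RAB27B, RAB3A and RAB4A) and 2 lay lower (RAB5A and RAB6B). The share of all tested genes that kept their side under every scaling was not computed, and these scalings use the same libraries.

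The NC libraries were close to each other and the OE libraries were not. The median absolute log2 difference between replicates over the 47 Rabs was 0.13 in NC and 0.88 in OE, beside 0.16 and 0.79 over all tested genes. Fitted with a single OE library against both NC libraries, edgeR's quasi-likelihood test called 14 Rabs without OE replicate 1, 14 higher and 0 lower (34.1% of all genes called). Without OE replicate 2 it called 25 Rabs, 8 higher and 17 lower (60.9% called). These fits share the NC libraries and assume that the lone OE library varies like them. With a single NC library left out, 0 Rabs were called (0.0844% of all genes without NC replicate 1 and 0.0534% without NC replicate 2).

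Rabs of regulated secretion, which dock and release secretory granules, held the 3 Rabs with the smallest p-values (RAB27B, RAB26 and RAB3A). Of 8, 6 were tested and 2 lay higher in both OE libraries (RAB27B and RAB3A; 19.9% of all tested genes did), with a median log2 fold change of 0.57. The median was 0.17 without OE replicate 1, 0.81 without OE replicate 2, 0.99 when scaled by library totals alone and 0.30 with loess offsets. Of the 6, 5 had NC levels below the middle rank of all tested genes, where the median of all genes lay above NC in OE replicate 1. The part of level in the median of this list was not tested. RAB27B (ENSG00000041353), which brings granules and exosome-forming compartments to the plasma membrane, had 20 and 22.1 CPM in NC against 37.9 and 33.6 in OE, or 21 ± 1.5 against 35.7 ± 3 CPM (SD, n = 2). The groups did not overlap, and the OE libraries lay close to each other. Its log2 fold change was 0.76 (SE 0.28), a ratio of 1.7, with an adjusted p of 0.734 in the fit over all genes. With OE replicate 2 as the only OE library, its log2 fold change came to 0.68, and with OE replicate 1 alone to 0.81. These fits share the NC libraries, and a lone OE library shows no spread within OE. They are therefore not separate tests of the difference. The close paralogue RAB27A, known for melanosome and lytic granule transport, was at 6.54 and 5.04 CPM in NC against 6.18 and 6.33 in OE, with overlapping groups.

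RAB3A (ENSG00000105649), the synaptic vesicle Rab that also acts in endocrine granules, had 9.93 and 10.1 CPM in NC against 14.2 and 16.4 in OE. Both OE libraries were higher, with a log2 fold change of 0.61 (SE 0.32, adjusted p = 0.734). RAB3D, its relative on exocrine granules, was at 35.4 and 31.2 CPM in NC against 29.5 and 35.3 in OE, so its groups overlapped. RAB26 (ENSG00000167964), a Rab of secretory granules and synaptic vesicles, stood apart in a single library, with 3.65 and 2.28 CPM in NC, 24.9 in OE replicate 1 and 3.34 in replicate 2. The exact Poisson 95% interval in OE replicate 1 was 22.0 to 28.1 CPM, which covers counting error only and not the spread between libraries. Its log2 fold change, the highest of the 47 tested Rabs, was 2.24 (SE 0.99, adjusted p = 0.734). This value fell to 0.17 with OE replicate 2 as the only OE library and rose to 3.02 with OE replicate 1 alone. RAB37, a Rab of mast cell and other secretory granules, was read from few footprints, 19 and 13 counts in NC and 25 and 5 in OE.

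Rabs of the ER and the Golgi form vesicles and carry new proteins through the secretory pathway. Of 13, 11 were tested, with a median log2 fold change of 0.01. Among these, 1 lay higher in both OE libraries (RAB33B), or 9.09% against 19.9% of all tested genes. Another 2 lay lower (RAB6A and RAB6B), or 18.2% against 20.4%. RAB6B (ENSG00000154917), a Golgi isoform of RAB6 known from neurons, had 10.3 and 9.43 CPM in NC against 5.42 and 6.73 in OE, or 9.89 ± 0.645 against 6.08 ± 0.926 CPM (SD, n = 2). Both OE libraries were lower, with a log2 fold change of -0.70 (SE 0.38), a ratio of 0.616 and an adjusted p of 0.734. RAB6A, the main RAB6 of transport through and back from the Golgi, was at 67.6 and 66.4 CPM in NC against 55.8 and 64.8 in OE. Its difference was small, with a log2 fold change of -0.15 (SE 0.30), and its groups overlapped when scaled by library totals alone and with loess offsets. RAB33B, a Golgi Rab that binds the autophagy factor ATG16L1, had 6.48 and 4.69 CPM in NC against 8.47 and 8.95 in OE, with a log2 fold change of 0.64 (SE 0.40, adjusted p = 0.734). It was higher in both OE libraries, except with loess offsets, under which the groups overlapped.

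For 4 other members of this list, named after their values were seen, the OE libraries stood on opposite sides of NC. RAB1A and RAB1B, which tether ER-derived vesicles to the Golgi, had 103 and 100 CPM and 102 and 105 CPM in NC. In OE replicate 1 they had 50.8 and 49.8 CPM, and in OE replicate 2 they had 114 and 155 CPM. RAB2A, which acts at the Golgi and in lysosome fusion, was at 84.2 and 90.3 CPM in NC, 48.7 in OE replicate 1 and 131 in replicate 2. RAB18 (ENSG00000099246), a Rab of the ER and lipid droplets, had 85.8 and 88.9 CPM in NC, 73.1 in OE replicate 1 and 179 in replicate 2. All 4 were lower in replicate 1 and higher in replicate 2, and for RAB18 the log2 fold change was 0.53 (SE 0.51, adjusted p = 0.784) over both. RAB43 and RAB2B, both of the Golgi, overlapped between the groups, as did RAB30 and RAB33A at 0.234 to 2.62 CPM.

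Rabs of early endosomes, which receive cargo taken up at the plasma membrane, had a median log2 fold change of -0.04 over 8 tested of 9. RAB5A (ENSG00000144566), which drives early endosome fusion, had 83.4 and 90.9 CPM in NC, 40.7 in OE replicate 1 and 75.4 in replicate 2. Both OE libraries were lower, OE replicate 1 by far more, and the log2 fold change was -0.58 (SE 0.41, adjusted p = 0.734). The fold change was -0.21 with OE replicate 2 as the only OE library and -1.14 with OE replicate 1 alone. RAB5B was at 30.6 and 34.1 CPM in NC against 33.6 and 31.4 in OE, with a log2 fold change of 0.00 (SE 0.28).

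The symbol RAB5C belongs to 2 rows that ran in opposite directions, and how reads were divided between them is uncertain. The row taken (ENSG00000108774) had 112 and 111 CPM in NC, 48.6 in OE replicate 1 and 196 in replicate 2. The other row with this symbol (ENSG00000267261) ran the other way, with 67.0 and 66.3 CPM in NC, 77.7 in OE replicate 1 and 16.5 in replicate 2. Summed, they had 179 and 177 CPM in NC against 126 and 212 in OE. RAB5C was 1 of the 3 Rabs above 10 CPM on average that differed most between the OE libraries, by -2 on the log2(CPM + 0.5) scale for replicate 1 minus replicate 2 in the row taken. Its log2 fold change was 0.13 (SE 0.68, adjusted p = 0.962), with 0.81 without OE replicate 1 and -1.24 without OE replicate 2. RAB4A (ENSG00000168118), which returns receptors quickly from early endosomes to the surface, had 35.9 and 30.0 CPM in NC against 46.8 and 37.0 in OE, with a log2 fold change of 0.35 (SE 0.31, adjusted p = 0.771). OE replicate 2 exceeded the higher NC library by less than the gap between the NC libraries. RAB4B, RAB20, RAB21, known for integrin uptake, and RAB22A overlapped between the groups, with log2 fold changes from -0.17 to 0.30.

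Rabs of recycling and polarised transport had footprints for every member but RAB25, with 11 tested of 12. RAB11A and RAB11B, which mark recycling endosomes and deliver apical cargo in epithelia, had 249 and 251 CPM and 242 and 210 CPM in NC. RAB11A was at 119 CPM in OE replicate 1 and 283 in replicate 2, and RAB11B was at 203 and 267 CPM. The OE libraries thus bracketed NC for both, more widely for RAB11A. RAB8A, of polarised exocytosis and the primary cilium, had 141 and 158 CPM in NC against 145 and 190 in OE, whereas RAB8B had 15.5 and 17.7 CPM in NC against 12.0 and 15.2 in OE. RAB8B lay lower in both OE libraries by a log2 fold change of -0.29 (SE 0.32), and overlapped NC when scaled by library totals alone.

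RAB10, RAB13, RAB14 and RAB35, which carry glucose transporters, junction proteins and recycling receptors to the surface, shared a pattern of levels below both NC libraries in OE replicate 1 and above both in OE replicate 2. RAB14, with the widest gap, was at 111 and 134 CPM in NC, 57.3 in OE replicate 1 and 172 in replicate 2. RAB13, a Rab of tight junction assembly, had 73.1 and 69.6 CPM in NC against 48.6 and 109 in OE in the row taken. The second RAB13 row (ENSG00000285641) had 47.1 and 48.9 CPM in NC against 27.1 and 39.2 in OE. RAB17 (ENSG00000124839), an epithelial Rab of transcytosis, had 9.93 and 8.85 CPM in NC, 8.09 in OE replicate 1 and 20.1 in replicate 2, with a log2 fold change of 0.59 (SE 0.52, adjusted p = 0.766). RAB15, an early and recycling endosome Rab, ran the other way, with 6.79 and 4.63 CPM in NC, 15.1 in OE replicate 1 and 3.93 in replicate 2. Its log2 fold change was 0.73 (SE 0.72, adjusted p = 0.790). RAB12 was nearly level, at 21.7 and 21.6 CPM in NC against 22.4 and 22.0 in OE, and turned to lower in both OE libraries with loess offsets.

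Rabs of late endosomes, lysosomes and autophagy had 6 tested members of 12, and the groups overlapped for all 6. RAB7A (ENSG00000075785), which governs transport to lysosomes and their positioning, had 232 and 248 CPM in NC, 135 in OE replicate 1 and 426 in replicate 2. It was also among the 3 Rabs above 10 CPM on average that differed most between the OE libraries. Its log2 fold change of 0.23 (SE 0.63, adjusted p = 0.926) became 0.83 with OE replicate 2 as the only OE library. With OE replicate 1 alone it became -0.87. RAB9A, of transport from late endosomes back to the Golgi, was at 20.8 and 22.6 CPM in NC, 14.7 in OE replicate 1 and 44.2 in replicate 2. RAB24 (ENSG00000169228), an autophagy Rab with low GTPase activity, completed those 3 with the opposite order, at 14 and 12.1 CPM in NC, 39.1 in OE replicate 1 and 12.1 in replicate 2. Its log2 fold change was 0.96 (SE 0.60, adjusted p = 0.734). RAB36, a Golgi and lysosome positioning Rab, had 16.8 and 12.7 CPM in NC against 6.47 and 13.3 in OE, with a log2 fold change of -0.57 (SE 0.47, adjusted p = 0.757). RAB29, which recruits the kinase LRRK2, was level at 20.8 and 22.8 CPM in NC against 19.9 and 23.9 in OE. RAB7B was read from 3 to 19 counts per library.

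Of the 9 remaining Rabs, 5 were tested and RAB23 and RAB40C lay higher in both OE libraries (40%, against 19.9% of all tested genes). All 5 had NC levels below the middle rank of all tested genes, where the median of all genes lay above NC in OE replicate 1. The part of level in this count was not tested. RAB23, a negative regulator of Hedgehog signalling at the cilium, had 9.11 and 8.49 CPM in NC against 11.7 and 11.6 in OE, with a log2 fold change of 0.40 (SE 0.33, adjusted p = 0.758). RAB40C, which joins a cullin ubiquitin ligase through its SOCS box, had 8.29 and 7.62 CPM in NC against 9.13 and 15.4 in OE, with 0.63 (SE 0.41, adjusted p = 0.734). With loess offsets the groups overlapped for both. RAB40B went the other way in OE replicate 2, at 4.07 and 4.10 CPM in NC, 5.33 in OE replicate 1 and 1.94 in replicate 2. RAB19 and the ciliary RAB28 overlapped as well. RAB6D, a retrocopy close to RAB6A whose reads may be shared with it, had 4 and 6 counts in NC, 52 counts in OE replicate 1 and 4 counts in OE replicate 2. In CPM this was 0.206 and 0.351 against 4.95 and 0.181, while RAB6C, a similar copy, had 0 counts throughout.

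**Figure D2:**
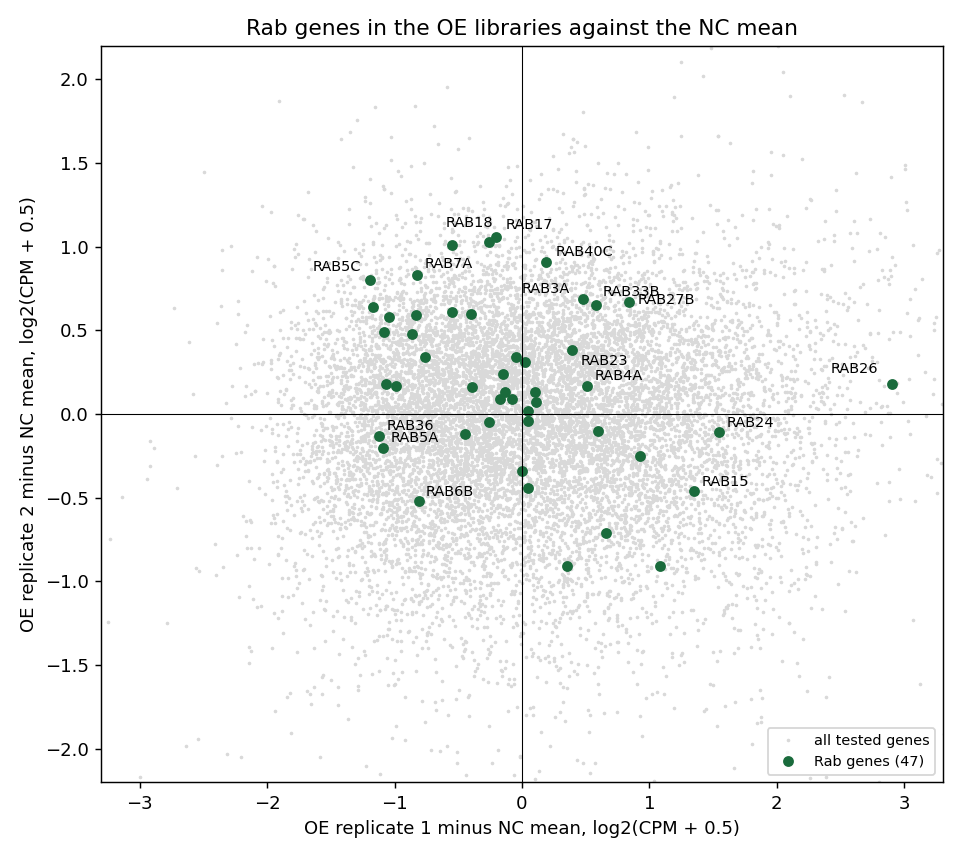
Difference from the mean of the NC libraries in OE replicate 1 (horizontal) and OE replicate 2 (vertical) on the log2(CPM + 0.5) scale, for 47 Rab genes (green, 16 labelled) and all tested genes (grey, 104 outside the axes). RAB27B and RAB3A lie to the upper right and RAB6B to the lower left, while RAB5C and RAB7A lie to the upper left and RAB15 and RAB24 to the lower right.

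The direction in OE replicate 1 followed the NC level. Ranked among all tested genes by NC level, 21 Rabs fell above the middle rank, and 18 of these lay below the NC mean in OE replicate 1 and 3 above. Of the 26 Rabs below the middle rank, 8 lay below and 18 above. All tested genes did the same, with a median log2(CPM + 0.5) difference of -0.43 above and 0.54 below the middle rank, beside -0.40 and 0.15 for the Rabs. In OE replicate 2 all genes were level, with -0.02 and 0.01, whereas the Rabs had 0.24 and 0.08, and 17 of the 21 higher-level Rabs lay above the NC mean. The depth of OE replicate 1 and its TMM factor of 1.36, beside 0.889 to 0.913 in the others, move with this pattern, and their part in it was not tested.

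**Figure D3:**
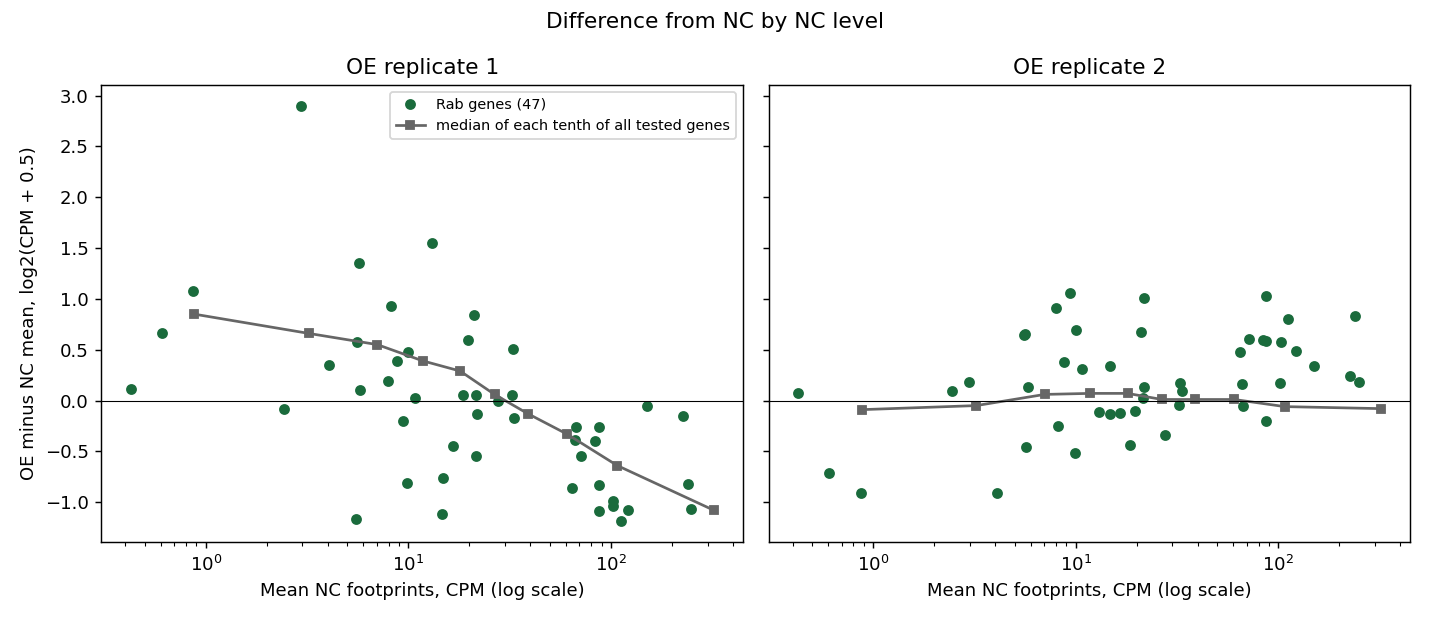
Difference from the NC mean on the log2(CPM + 0.5) scale against the mean NC level in CPM (log axis), for OE replicate 1 (left) and OE replicate 2 (right). Points are the 47 tested Rab genes and squares the medians of all tested genes in 10 equal bins of NC level, which run from 0.85 to -1.08 in OE replicate 1 and stay between -0.09 and 0.07 in OE replicate 2.

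Ratios between paralogues within a library do not depend on scaling by TMM, RLE or library totals, and were computed after the values were seen. They can change with loess offsets. In OE replicate 1 the median differences from NC of all genes in the level bins of RAB3A and RAB3D were 0.39 and -0.13. Those of RAB5A and RAB5B were -0.64 and 0.06, and both pairs of bins differed in the direction of the ratio. For RAB6A and RAB6B (-0.33 and 0.39), RAB8A and RAB8B (-0.64 and 0.29) and RAB27A and RAB27B (0.55 and 0.29) they differed against it. The part of level was not tested. Of 14 pairs of tested Rabs with the same number, the OE ratios lay outside the NC ratios on the same side for 5, and overlapped or straddled them for 9. The share of other gene pairs that did so was not computed. Among single tested genes, 20.4% lay lower and 19.9% higher in both OE libraries. The pairs of RAB5A, RAB5B and RAB5C share members. An exact permutation test of 2 against 2 libraries cannot give a two-sided p below 0.333, so none was run on the ratios. The log2 ratio of RAB6A to RAB6B was 2.70 and 2.81 in NC and 3.35 and 3.26 in OE, so RAB6B made up less of the pair in both OE libraries. RAB3A to RAB3D was -1.83 and -1.62 in NC and -1.05 and -1.10 in OE. RAB8A to RAB8B was 3.18 and 3.16 in NC and 3.59 and 3.64 in OE. In these 3 pairs the OE libraries lay within 0.09 of each other. RAB27A to RAB27B was -1.61 and -2.13 in NC and -2.61 and -2.41 in OE, a gap between groups smaller than that within NC. RAB5A to RAB5B was 1.44 and 1.41 in NC, 0.28 in OE replicate 1 and 1.27 in replicate 2. RAB40B to RAB40C was -1.02 and -0.89 in NC, -0.77 in OE replicate 1 and -2.97 in replicate 2. RAB1A to RAB1B was near 0 in 3 libraries and -0.44 in OE replicate 2.

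**Figure D4:**
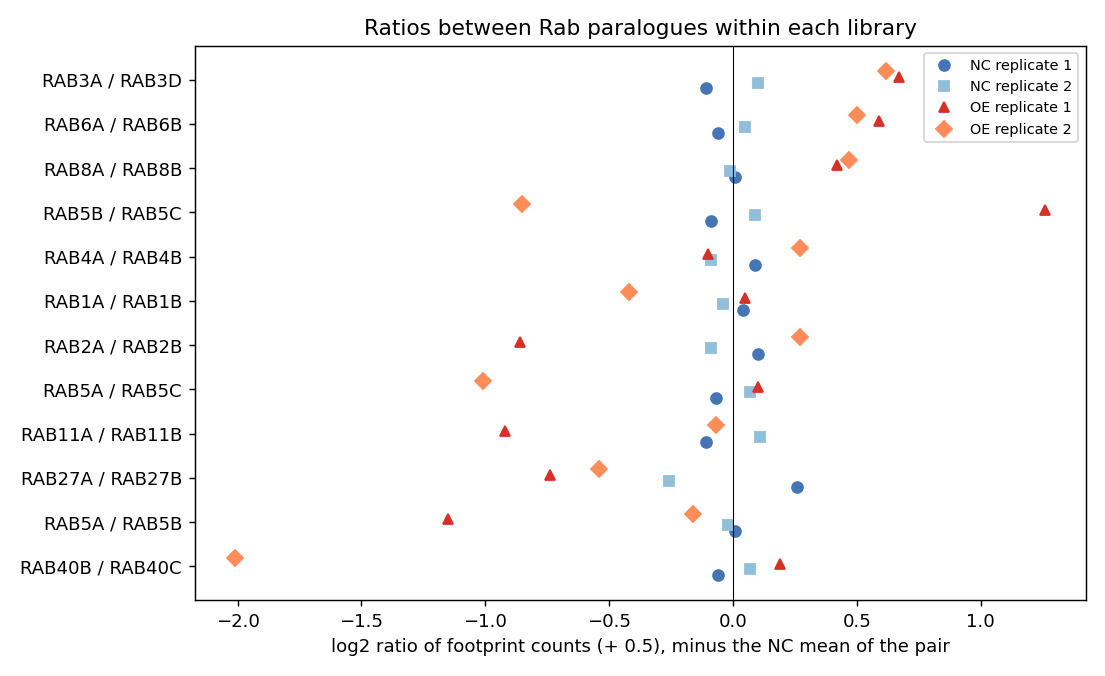
Log2 ratio of footprint counts (plus 0.5) between 2 Rabs with the same number within each library, minus the mean of the NC libraries for that pair, for the 12 pairs with at least 20 counts throughout. The OE points of RAB3A to RAB3D, RAB6A to RAB6B and RAB8A to RAB8B lie together to the right of the NC points, while those of RAB5B to RAB5C and RAB40B to RAB40C lie far apart.

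The factors that prenylate and recycle Rabs were all tested (9 of 9 found), and 2 lay lower (22.2%, against 20.4% of all tested genes) and 2 higher (22.2%, against 19.9%) in both OE libraries, with 0 passing edgeR's quasi-likelihood test after adjustment. ARL6IP5, of the prenylated Rab acceptor family, had 177 and 179 CPM in NC against 47.9 and 78.5 in OE, with a log2 fold change of -1.49 (SE 0.39, adjusted p = 0.734). RABAC1, which acts on GDI-bound Rabs, had 260 and 205 CPM in NC against 75.4 and 192 in OE, with -0.80 (SE 0.55). The escort protein CHM lay slightly higher, at 23.0 and 25.7 CPM in NC against 28.1 and 30.5 in OE. GDI2, the widely expressed GDI, bracketed NC like many Rabs, at 337 and 351 CPM in NC, 151 in OE replicate 1 and 514 in replicate 2. CHML, the paralogue of CHM, had 11 and 13 CPM in NC against 26.9 and 13 in OE.

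Exchange factors and activating proteins lay higher in both OE libraries more often than lower. Of 49 exchange factors, 15 lay higher (30.6%) and 1 lower (2.04%), and of 42 tested activating proteins 13 lay higher (31.0%) and 2 lower (4.76%), against 19.9% and 20.4% of all tested genes. By edgeR's quasi-likelihood test with adjustment 0 of either list passed, and at an unadjusted p below 0.05 there were 1 and 3. Their median log2 fold changes were 0.30 and 0.40. Most of these genes lie below the middle rank by NC level (32 of 49 and 27 of 42), where the median of all genes lay above NC in OE replicate 1. The part of level in these counts was not tested. The medians of the exchange factors and activating proteins were 0.51 and 0.70 in OE replicate 1 and 0.16 and 0.03 in OE replicate 2. With loess offsets 12 exchange factors lay higher and 4 lower, and 10 activating proteins lay higher and 4 lower.

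HPS4, part of the exchange factor of RAB32 and RAB38, had 8.85 and 8.90 CPM in NC against 18.6 and 17.7 in OE, with a log2 fold change of 1.03 (SE 0.31, adjusted p = 0.734). Its libraries agreed closely within each group, and both of these Rabs had 0 counts in all 4. MON1B, of the RAB7 exchange factor, had 5.45 and 6.97 CPM in NC against 14.3 and 10.4 in OE, and DENND2D, of the DENN family of exchange factors, had 8.39 and 9.96 CPM in NC against 26.6 and 13.5 in OE. Both lay higher in both OE libraries, more so in replicate 1. TBC1D20, an activating protein for RAB1, had 10.2 and 11.8 CPM in NC against 32.5 and 19.5 in OE, with a log2 fold change of 1.24 (SE 0.38, adjusted p = 0.734). TBC1D2B had 10.2 and 9.02 CPM in NC against 21.8 and 14.7 in OE. TBC1D3I, 1 of a set of near-identical gene copies whose reads cannot be told apart with certainty, had 1.49 and 2.99 CPM in NC against 21.8 and 3.93 in OE.

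Of 48 Rab effectors, all tested, 5 lay higher (10.4%, against 19.9% of all tested genes) and 7 lower (14.6%, against 20.4%) in both OE libraries, with a median log2 fold change of 0.16 and 0 passing after adjustment. RAB11FIP1, an effector of RAB11 and RAB25 in recycling, had 80.5 and 97.0 CPM in NC against 43.3 and 34.5 in OE. Both OE libraries were less than the lower NC library by a wide margin, with a log2 fold change of -1.19 (SE 0.32, adjusted p = 0.734). PLEKHM1, a RAB7 effector of lysosome fusion, had 12.4 CPM in both NC libraries and 34.9 and 17.3 CPM in OE. RABEP2, an effector of early endosome Rabs, had 12.9 and 13.2 CPM in NC against 22.5 and 20.4 in OE. Among the kinases and the phosphatase that act on Rabs, PPM1H, which dephosphorylates Rabs, had 6.54 and 6.38 CPM in NC against 12.2 and 10.5 in OE. LRRK1 had 11.7 and 15.4 CPM in NC against 33 and 16 in OE, TBK1 overlapped between the groups, and LRRK2 had footprints in OE replicate 1 alone, at 0.381 CPM.

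Among other small GTPases, the ARF and ARL family, which controls coat assembly and Golgi and cilium traffic, had a median log2 fold change of -0.31 over 24 tested genes, with 6 lower (25%, against 20.4% of all tested genes) and 2 higher (8.33%, against 19.9%) in both OE libraries. Ras relatives, which relay growth signals, had a median of 0.15 over 18, with 5 lower (27.8%) and 4 higher (22.2%). The Rabs lay between them at 0.06, and 0 genes of the 2 other families passed edgeR's quasi-likelihood test after adjustment (smallest adjusted p = 0.734). The ARF and ARL median was -0.68 in OE replicate 1 and 0.01 in replicate 2, and that of the Rabs was -0.13 and 0.17. Scaled by library totals alone, the medians were -0.06 for the ARF and ARL family, 0.46 for the Ras relatives and 0.36 for the Rabs.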

How the data were processed

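Ribosome footprint libraries of 2 NC and 2 OE samples were grouped by their titles. The authors deposited 1 table of estimated counts per Ensembl gene for each library, per the file headers. Per the submitters' processing notes the tools were RSEM, StringTie, HISAT2, Bowtie2 and fastp on build hg18, with no version, order, annotation or strand setting named. Counts were rounded and analysed in R 4.3.3 with edgeR 4.0.16 (filterByExpr, minimum count 10; TMM; quasi-likelihood test on group alone; Benjamini-Hochberg adjustment, 12560 genes, threshold 0.05), limma 3.58.1 and DESeq2 1.42.0. The SE is the log2 fold change divided by the square root of the F statistic. Differences of single libraries use log2(CPM + 0.5). The steps were tested on simulated data. Library totals, the filter on low counts, the test, pairing and left-out libraries were varied.

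Members and lists were chosen with earlier results of these data known. Full statistics went to the 14 tested Rabs with the smallest p and to the 3 above 10 CPM on average that differed most between the OE libraries; of each list of Rab regulators the 3 genes with the smallest p were named. A further part of the rule, Rabs by level per length, was not applied, since no lengths were used. RAB6A and RAB8B with their fold changes, and CHM, GDI2, TBK1, LRRK2 and the other Rabs were named with their levels after their values were seen. Some genes outside the Rab family are not reported here.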

Additional observations from a re-analysis of the deposited data

How the results depend on the processing

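With 2 libraries a group and OE libraries that differ widely, calls rest on which OE library is kept. Over all genes, 0 were called by edgeR's quasi-likelihood test, 25 by DESeq2, 29 by edgeR's likelihood ratio test, and 7 to 7970 with 1 library left out. Rabs called were 0 under every setting run that kept both OE libraries, and some were called only with an OE library left out. Rabs lower in both OE libraries numbered 4, or 5 with no filter (18.7% of all genes). They numbered 2 with library totals only (11.8%) and 7 with loess offsets (20%), which were chosen after seeing the data. Those higher numbered 7, or 18 with library totals only (30.2%) and 6 with loess offsets (19.7%). With 1 library left out, 7 to 27 lay lower and 9 to 29 higher. With 1 left out the shares of all genes rose too, to between 24.8% and 45.5% lower and between 25.4% and 46.9% higher. The Rab median of 0.06 was 0.36 with library totals only and -0.11 to 0.17 with 1 library left out. METTL14 (2.55) was called by DESeq2 with 2.54 (adjusted p = 0.0495), and ran from 0.99 to 3.24 with 1 library left out. Among the Rabs given full statistics, the log2 fold change changed sign with an OE library left out for RAB15 (-0.54 to 1.36), RAB17 (-0.26 to 1.10), RAB18 (-0.30 to 1.04), RAB24 (-0.12 to 1.54), RAB7A (-0.87 to 0.83) and RAB5C (-1.24 to 0.81), which was also -0.08 with its rows summed and -0.19 with either block below. Other Rabs did so too, such as RAB10, at 0.60 without OE replicate 1 and -0.45 without OE replicate 2, RAB14, at 0.49 and -1.13, and RAB9A, at 1.03 and -0.61.

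The correlation of the deviations of same-numbered libraries was -0.139 over all 12560 tested genes and 0.481 over the 47 Rabs, and 2 pairs do not settle a pairing. The replicate block called 24 genes and 0 Rabs, with a Rab median of 0.01; with the numbers crossed, also chosen after seeing the data, it called 29 genes and 0 Rabs.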
